A study of Mus musculus with 18 samples.

Results

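The JAK, STAT and SOCS genes studied here were 9 genes of the mouse, chosen by name: the kinases Jak1 and Jak2, the transcription factors Stat2, Stat4, Stat5a, Stat5b and Stat6, and the inhibitors Socs1 and Socs3. They are 9 of 21938 protein-coding genes on the mm10 chromosomes. The locus of each gene ran from 10 kb upstream of its start to its end in GENCODE release M21, and distances are counted from the outermost annotated start. Accessible chromatin was mapped by ATAC-seq, in which a transposase inserts adapters into open DNA, in 18 bulk retinas of wild-type (WT) mice, 3 in each of 6 groups. Retinas came from mice of 3 or 18 months (3mo, 18mo) and were of 3 kinds at each age. IOP retinas came from eyes held at an intraocular pressure of 30 mmHg for 1 hour and collected, by the labels, at day 2, whereas the study's text names a later day. Contralateral retinas came from the other eye of such animals on the same day, so that these controls belong to animals that had the procedure, and untreated retinas came from animals without it. The treatment text shared by all samples also names dasatinib and its vehicle, and which libraries, if any, had the drug is not given. The labels number 3 samples per group without naming separate animals, so p-values measure the spread between these samples, which may in part be technical.

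Cytokine receptors carry JAK kinases, which phosphorylate STAT proteins when a ligand binds. The STATs then pair, enter the nucleus and bind DNA at short palindromes, and the SOCS genes are among their targets and switch the kinases and receptors off again. In the retina this pathway is known for its response to injury, where cytokines of the interleukin-6 family act on Müller glia and neurons. Stat2 works with Irf9 downstream of type I interferon, Stat4 downstream of interleukin-12, Stat6 downstream of interleukin-4, and Stat5a and Stat5b downstream of growth hormone and prolactin.

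Each library was deposited as its own list of peaks, so that a region is either called in a library or not, and the sequencing depth obtained behind a list is unknown, although the study's methods state a target. The lists held 36011 to 66160 peaks. The shortest listed peak was 79 to 89 bp in the 6 untreated libraries and 114 to 157 bp in the other 12, and the median width was 161 to 192 bp against 264 to 395 bp. The untreated libraries cannot be told apart from their shorter peaks, and comparisons with them are reported on that understanding. Of 17 promoters of retinal cell markers, 11 were called in all 18 libraries and none in 0, whereas 4 of 5 of microglia and macrophages and 3 of 3 of endothelium were called in 0 libraries. In bulk tissue a change in the share of a cell type and a change in accessibility per cell cannot be told apart.

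In the 9 loci, 34 consensus regions (merged peaks called in at least 2 libraries, of 73567 in all) and a further 13 regions of 1 library were found. The Stat5a and Stat5b genes lie side by side, head to head, and their windows share 3 of these regions. By position, 18 of the 34 regions were intronic, 9 lay at promoters (1 kb upstream to 100 bp downstream of an annotated start), 4 were intergenic and 3 exonic. Of the 34, 13 (38.2%) were called in all 18 libraries, beside 33.6% of all consensus regions, and 9 were called in only 2 to 4 libraries (26.5% beside 25.5%). The regions called everywhere were wider (median 879 bp) and richer in CpG, with a median of 18 CpG in the 200 bp around the summit, the point of highest signal, against 3 CpG in the other 21 regions. The other 21 regions had a median width of 254 bp. In the same classes, the medians over all consensus regions were 849 and 302 bp in width and 8 and 3 CpG.

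The palindrome bound by STAT dimers, TTCNNNGAA, reads the same on both strands. It was found 8 times in 7 of the 34 regions (20.6%, beside 11.6% of all regions), and in 2 regions it lay within 100 bp of the summit (5.88% beside 4.42%). A longer form, with 4 bases between its ends, was also searched and was found in 5 of the 34 regions (14.7%, beside 10.1% of all regions). These were regions of Stat2, Stat4, Jak1, Jak2 and Socs1, and their matches are not shown. The 8 matches of the shorter palindrome are shown with 10 bases on either side. They are the places in the 34 regions where that form lay under a listed peak. Capitals mark the match, and all sequences in this section are the plus strand of mm10, read from the reference genome.
Jak1, within the gene, chr4:101264589-101264617: tggtcccagtTTCGATGAAtcgggtccct
Jak2, upstream of the start, chr19:29251129-29251157: aagcggtcccTTCGCAGAAgtggtggtta
Jak2, intron, chr19:29253735-29253763: aaaatttactTTCTCAGAAccttgtgtgg
Jak2, intron, chr19:29270534-29270562: ctgtccttacTTCTGCGAAgtgcctgaaa
Socs1, upstream of the start, chr16:10785971-10785999: atctcgacccTTCTTGGAAcccggctagc
Socs3, upstream of the gene, chr11:117976215-117976243: agctgggcagTTCTGGGAAgccaggctgc
Socs3, start region, chr11:117969229-117969257: cgccccccgaTTCCTGGAActgcccggcc
Socs3, start region, chr11:117969502-117969530: cccccctcccTTCTAAGAAggctggtttc
The Socs3 match at chr11:117969239-117969247, 804 bp from the outermost start and just upstream of the start of the protein-coding transcript in GENCODE, was covered by a peak in 18 of 18 libraries. The other match in the Socs3 start region, at 531 bp, was covered in 14 libraries, the exceptions being 3 of 3 untreated retinas of 3mo and 1 of 18mo. The Socs1 match was covered in 17 and the upstream Jak2 match in 15 libraries. In the RefSeq promoter windows (mm10, 250 bases before to 50 after a start), which matched all 9 genes with 12 windows, 1 window held TTCNNNGAA, that of Socs3, beside 8.30% of 32851 windows. Its match is the Socs3 site at 531 bp, which begins at −154 from the RefSeq start. The site at 804 bp lies inside the gene beyond that window. A match is a description of the sequence and not a measured binding site.

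**Figure D1:**
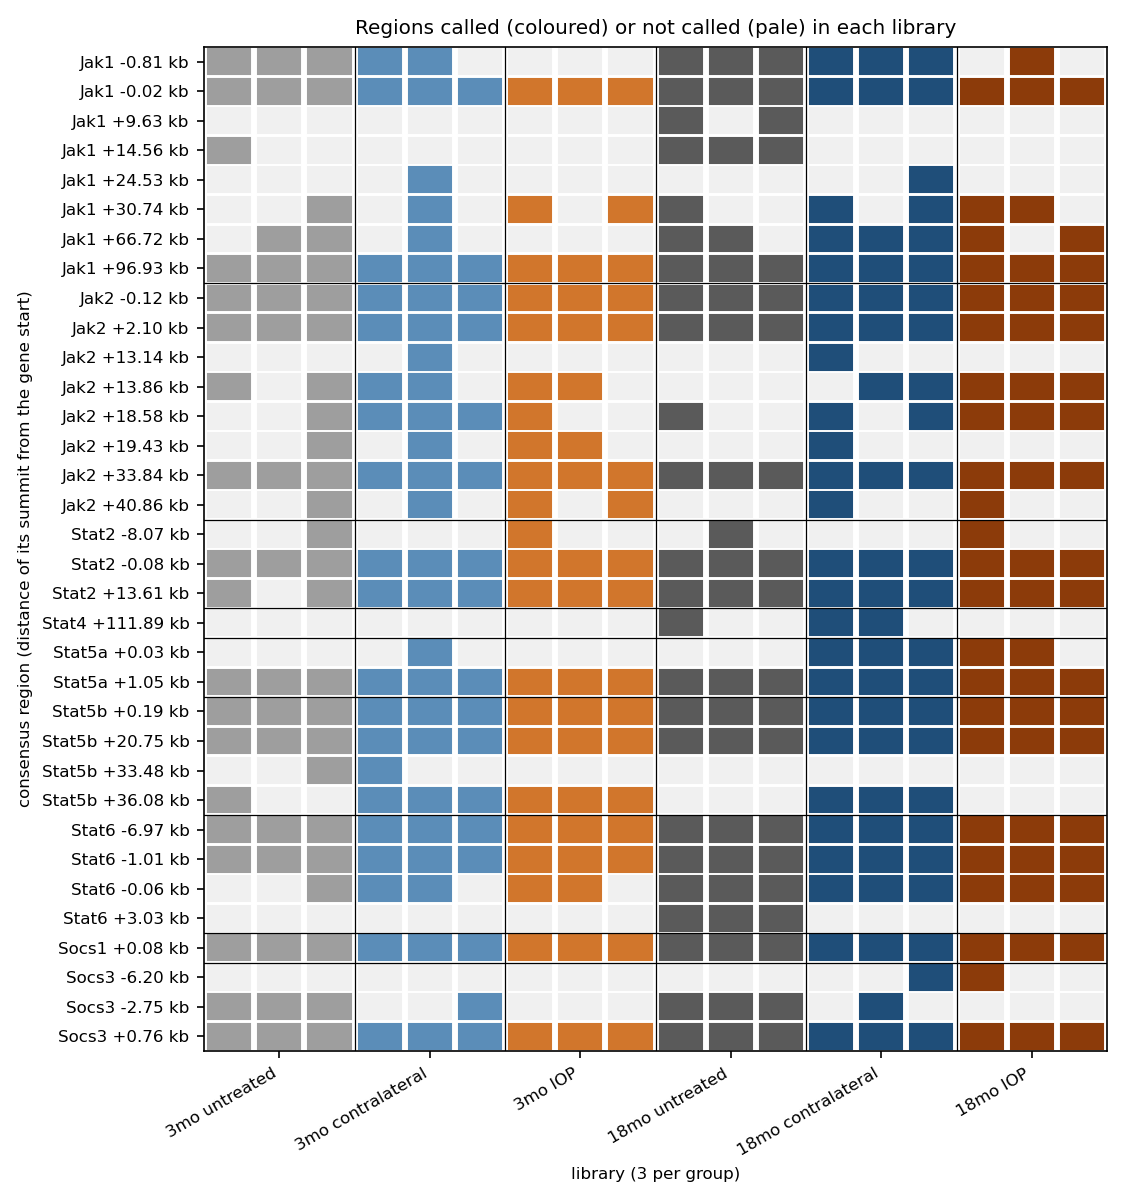
Calls of the 34 consensus regions (rows, each named by its nearest gene and the distance of its summit from the gene start in kb) in the 18 libraries (columns, 3 per group). A coloured square is a called region and a pale square one that was not called, and 13 rows are filled in all 18 libraries.

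A peak touched the promoter window (1 kb upstream to 100 bp downstream of any annotated start) of 8 of the 9 genes in all 18 libraries, as it did for 51.7% of 21827 protein-coding genes. For Stat6 this rests on the edge of a region whose summit lies 1.01 kb upstream, since the region with its summit in the window was called in 14 libraries. Stat4 was the exception, with a peak there in 0 libraries, as for 35.8% of protein-coding genes. Among regions called in all 18 libraries, the one nearest to the start differed in rank between the genes. For Stat5a and Stat6 a nearer region was called in 6 and 14 libraries only and is described below. Within each library's own list, ranked by −log10 q, the Stat2 peak stood at the 97.4th to 99.7th percentile, Jak1 at 86.0 to 94.8 and Jak2 at 85.7 to 94.5. Socs1 followed at 74.7 to 82.9. Socs3 (39.4 to 82.0), Stat5b (20.5 to 75.3), Stat5a (18.1 to 73.7) and Stat6 (26.2 to 66.3) overlapped each other.

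**Figure D2:**
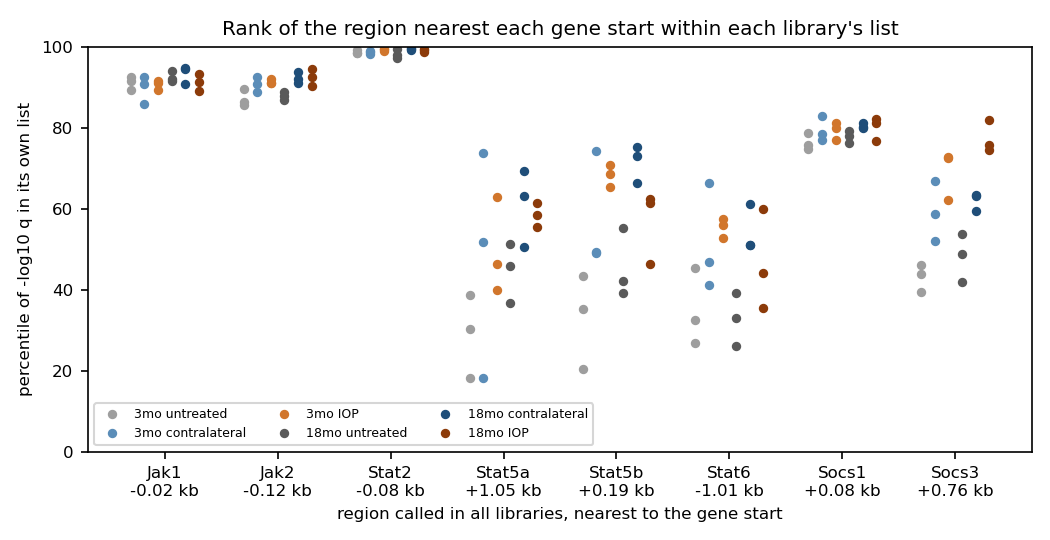
Percentile of −log10 q, within each library's own list, of the always-called region nearest to each gene start (x axis, gene and distance of the summit in kb), with 1 point per library coloured by group. Stat2 sits at the 97.4th percentile or higher in all 18 libraries, and Stat4 has no such region.

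Jak1, the kinase shared by the interferon and interleukin-6 receptors, had 8 consensus regions over a locus of 122.9 kb. Its start region, chr4:101264331-101265837, and an intronic region 96.9 kb downstream were called in all 18 libraries. The number of peaks in the Jak1 locus was 4, 4 and 6 in untreated, 3, 6 and 2 in contralateral and 4, 2 and 3 in IOP retinas of 3mo. In 18mo retinas it was 9, 7 and 7 in untreated, 6, 5 and 6 in contralateral and 4, 4 and 3 in IOP retinas. The 18mo untreated retinas lay above all other groups, and within the contralateral retinas the ages overlapped. In these 3 untreated libraries the start region alone was split into 2, 3 and 3 peaks. Counted as merged regions they held 8, 5 and 5, beside 6, 4 and 6 in 18mo contralateral retinas, and no longer lay apart. Mean peak number was 6.67 ± 1.37 (SD, n = 6) in 18mo controls and 4.17 ± 1.60 in 3mo controls, a difference of 2.5 peaks (p = 0.026, two-sided exact permutation test, adjusted p = 1 over 14842 loci). With ages exchanged only within a kind of control the exact permutation p was 0.0300. With lists of equal length the difference was 0.833 peaks (exact permutation p = 0.145). This was the only gene of the 9 below 0.05 for age before adjustment, beside 1.84% of all loci, and no locus passed after adjustment (0%).

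A Jak1 region 0.815 kb upstream of the start, chr4:101265945-101266303, had the largest difference of calls between IOP and contralateral retinas. It was called in 2 of 3 contralateral and 0 of 3 IOP retinas at 3mo, and in 3 of 3 and 1 of 3 at 18mo, and it was called in 6 of 6 untreated retinas. The exact test stratified by age gave p = 0.0800, the smallest p this pattern of calls allows. The 201 bp around its summit, chr4:101265997-101266197, are shown because of this difference in calls.
Jak1 0.815 kb upstream: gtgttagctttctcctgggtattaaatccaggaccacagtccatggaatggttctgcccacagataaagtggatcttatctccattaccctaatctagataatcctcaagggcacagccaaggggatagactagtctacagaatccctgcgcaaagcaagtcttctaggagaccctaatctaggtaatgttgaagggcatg
It held no STAT palindrome. An intronic region of Jak1 14561 bp downstream, chr4:101250641-101250802, was called in 4 untreated retinas (1 at 3mo and 3 at 18mo) and in 0 of the other 12.

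Jak2, which serves the receptors of growth hormone, erythropoietin and interferon gamma, had 8 consensus regions, of which 3 were called in all 18 libraries, at the start (chr19:29251011-29252218) and 2.10 and 33.8 kb downstream. The number of peaks was 4, 3 and 7 in untreated, 5, 10 and 4 in contralateral and 7, 5 and 4 in IOP retinas of 3mo, and 4, 3 and 3, 7, 6 and 6, and 6, 5 and 5 in the same groups of 18mo. The 3mo contralateral replicate 2, the longest list of all, held the highest value. Neither age (difference −0.667 peaks, p = 0.721) nor IOP (−1 peak, p = 0.480) separated the groups by exact permutation tests (n = 6 each). Another 5 intronic Jak2 regions, between 13.1 and 40.9 kb downstream, were called in 2 to 11 libraries without a difference between groups that passed 0.05.

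Stat2 had 3 consensus regions. Its start region, chr10:128270072-128270977, was called in all 18 libraries with the highest rank of the 9 genes, and an exonic region 13.6 kb downstream, chr10:128283701-128284458, in 17. The number of peaks was 2, 1 and 3 in untreated retinas of 3mo, 2 in all 6 contralateral retinas, and 2 or 3 in the others. Stat2 was the only member whose mean peak number was higher in IOP (2.5 ± 0.548) than in contralateral retinas (2.00 ± 0, SD, n = 6 each), by 0.500 peaks (p = 0.200, exact permutation test).

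Stat4 was nearly without listed peaks. Over its whole locus, the longest of the 9, 14 of 18 libraries listed 0 peaks and 4 listed 1, so that it stayed below the mean of 1 peak required for a test. Its only consensus region, in an intron 111.9 kb downstream (chr1:52098885-52099126), was called in 3 of 6 controls of 18mo and 0 of 6 of 3mo (Fisher's exact p = 0.182, the smallest this region allows). The median percentile of this region in the lists that held it was 13.7.

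Stat5a and Stat5b lie within 8.63 kb of each other, start to start. For Stat5a a region 1.05 kb downstream of its outermost start, chr11:100860190-100860790, was called in all 18 libraries. A second region at its outermost start, chr11:100859277-100859523, was called in 6 libraries only: 1 contralateral retina of 3mo, and 3 contralateral and 2 IOP retinas of 18mo. Peaks in the Stat5a locus numbered 2.83 ± 0.408 in 18mo and 2.17 ± 0.408 in 3mo controls (SD, n = 6 each), a difference of 0.667 peaks (p = 0.0801, exact permutation test). At Stat5b the start region, chr11:100850078-100851108, and an intronic region 20.7 kb downstream were called in all 18 libraries.

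The only one of the 34 regions that separated IOP from contralateral retinas at an age lay in an intron of Stat5b, 36.1 kb downstream, chr11:100814473-100814859. It was called in 3 of 3 contralateral and 0 of 3 IOP retinas of 18mo. At 3mo it was called in 3 of 3 contralateral and 3 of 3 IOP retinas, and in untreated retinas in 1 of 3 at 3mo and 0 of 3 at 18mo. No test was made at one age, since an exact test of 3 against 3 libraries cannot fall below p = 0.1. This loss in 1 of the 34 member regions is close to the share over all consensus regions, of which 2.23% were lost in this way in 18mo IOP retinas. Of all regions 0.239% were gained at 18mo. At 3mo 0.241% were lost and 0.217% gained, where the members had 0 and 0. Over both ages the stratified exact test gave p = 0.1, the smallest this pattern allows. The comparison of untreated with contralateral retinas (1 of 6 against 6 of 6) gave an exact p = 0.0200, and was the only member region below 0.05 among 3 that could be tested, beside 18.2% of all testable regions (0% after adjustment). The median percentile of the region in the 10 lists that held it was 22.2, so that it was a weak peak, and with lists of equal length neither contrast separated the groups (differences in the share of libraries of −33.3 percentage points for IOP at 18mo and −16.7 for untreated against contralateral).

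The 201 bp around the summit of this Stat5b region, chr11:100814547-100814747, are shown because of this loss of calls. Capitals mark a match to the NRF1 palindrome, which was searched for after this sequence had been read. Of the 34 member regions only this 1 held it, a match fixed in advance, so the count is no measure of enrichment. Of all regions, 0.378% held it within the same 200 bp window.
Stat5b 36.1 kb downstream: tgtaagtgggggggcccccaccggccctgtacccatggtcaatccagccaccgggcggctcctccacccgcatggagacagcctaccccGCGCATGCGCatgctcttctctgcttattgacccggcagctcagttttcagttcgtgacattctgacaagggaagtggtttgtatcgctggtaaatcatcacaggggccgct
No STAT palindrome was found in this window. In the whole Stat5b locus, peaks numbered 5.17 ± 0.753 in contralateral, 4.00 ± 0.632 in IOP and 3.67 ± 0.516 in untreated retinas (SD, n = 6 each). The difference of IOP from contralateral was −1.17 peaks (p = 0.06) and that of untreated from contralateral −1.5 peaks (p = 0.0150, adjusted p = 0.297), by stratified exact permutation tests over 400 arrangements. With the locus starting 5 kb upstream the latter was −0.833 peaks (exact permutation p = 0.0900).

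Stat6 had 4 consensus regions, of which those 6.97 and 1.01 kb upstream were called in all 18 libraries. The region at its start, chr10:127642493-127643212, was called in 3 of 6 controls of 3mo and 6 of 6 of 18mo, and in 5 of 6 IOP retinas (Fisher's exact p = 0.182 for age, the smallest this region allows). A region in an intron 3.03 kb downstream, chr10:127645918-127646117, was called in 3 of 3 untreated retinas of 18mo and in 0 of the other 15 libraries. With the Stat4 region above, these had the largest differences of calls between the ages, 3 libraries of 6.

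**Figure D3:**
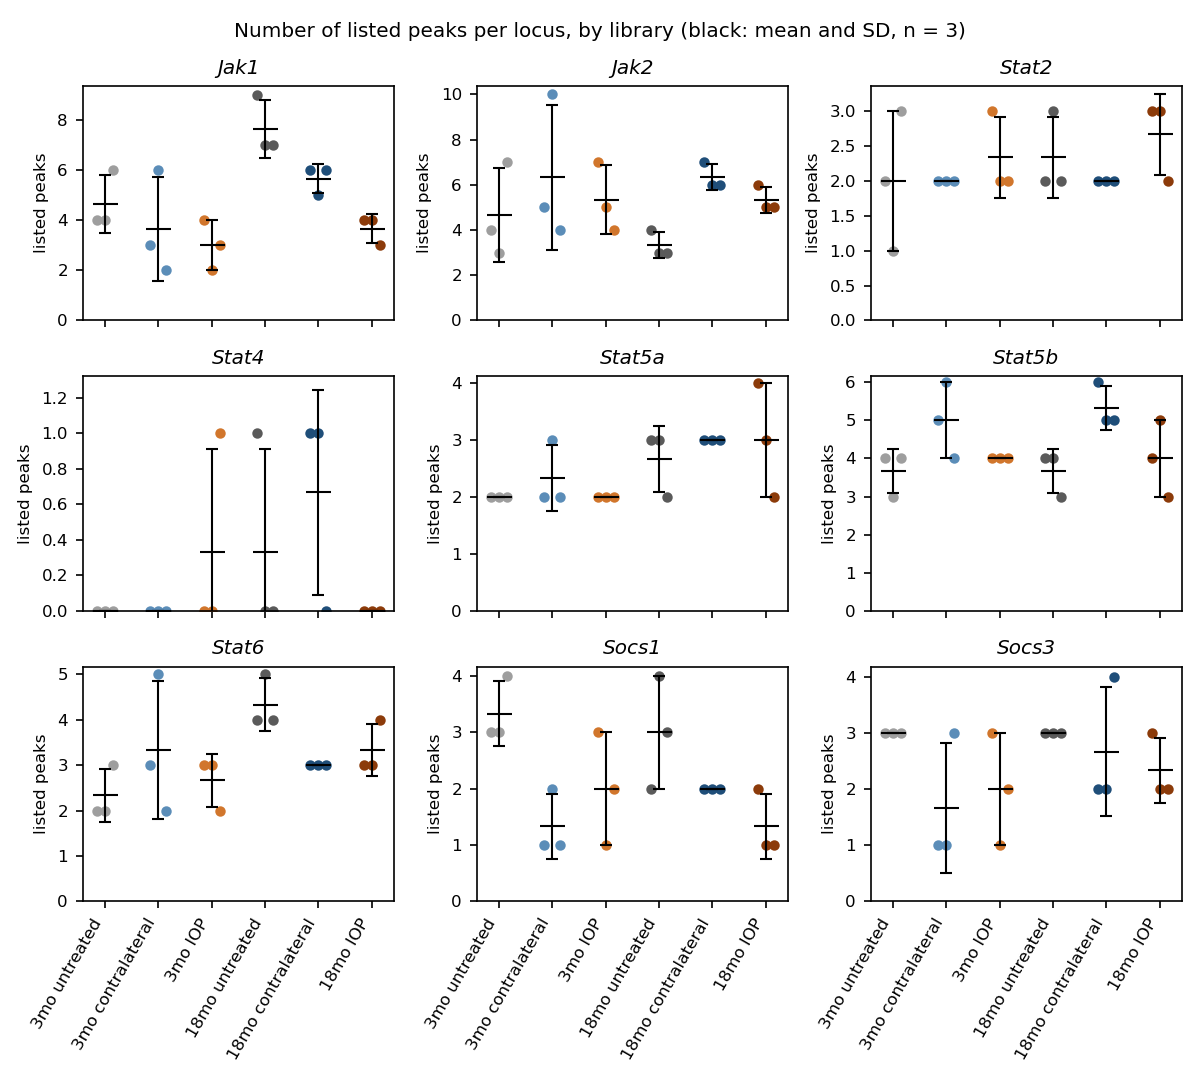
Number of listed peaks in each of the 9 loci (y axis, from 0) in the 18 libraries, by group, with the mean and SD of 3 libraries in black. Jak1 has 7 to 9 peaks in 18mo untreated retinas and 2 to 6 in all other groups, and Stat4 has 0 or 1 throughout.

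Socs1, the inhibitor of interferon signalling, was covered by a single region of 2474 bp over its start, chr16:10784293-10786766, called in all 18 libraries. The number of peaks into which the callers split it was 2 to 4 in untreated retinas and 1 to 3 in the others. The difference of untreated from contralateral retinas was 1.5 peaks (p = 0.0200, adjusted p = 0.297, exact permutation test), beside 9.05% of all loci below 0.05 and 0% after adjustment. The bases under peaks went the other way, by −680 bp, as they did in 77.8% of all loci by adjusted p. Between IOP and contralateral retinas Socs1 overlapped in both measures. The mean peak number was 1.67 in both groups of 6, and the bases under peaks were 2083.2 ± 126.6 bp in IOP and 2083.7 ± 150.2 bp in contralateral retinas (SD, n = 6 each).

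Socs3, the inhibitor of interleukin-6 type signalling, was the only one of the 9 loci where IOP retinas lay apart from contralateral retinas at both ages. The difference was not in the number of peaks (2.17 in both groups of 6) but in their extent, a measure added after the lists had been examined. Bases under peaks in the Socs3 locus were 1200, 1229 and 1307 bp in contralateral and 1559, 2031 and 1671 bp in IOP retinas of 3mo. At 18mo they were 1287, 1450 and 1384 bp in contralateral and 2036, 1721 and 1773 bp in IOP retinas. At both ages all 3 IOP retinas lay above all 3 contralateral retinas. Untreated retinas had the least, 502, 400 and 618 bp at 3mo and 876, 975 and 781 bp at 18mo, in lists of shorter peaks.

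Mean covered length of Socs3 was 1798.5 ± 195.3 bp in IOP and 1309.5 ± 94.1 bp in contralateral retinas (SD, n = 6 each). The difference of 489 bp gave p = 0.00500 by the two-sided exact permutation test stratified by age, the smallest p that 400 arrangements allow, and an adjusted p of 0.883 over 14842 loci. No locus passed after adjustment (0%). Covered length was lower in IOP retinas at most loci, with a median difference of −38.2 bp, and 0.963% of loci were higher and 3.82% lower with an unadjusted p below 0.05. IOP retinas lay above all contralateral retinas at both ages in 25 loci (0.168%), of which Socs3 ranked sixth by difference. Random exchange of labels within each age would give this order in no smaller a share of loci. The share therefore does not set Socs3 apart. The difference was 508.3 bp at 3mo and 469.7 bp at 18mo (difference between ages −38.7 bp, p = 0.900, exact permutation test).

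The added length of Socs3 lay inside the gene. Positions here are counted from the outermost start, and the protein-coding transcript starts 861 bp further in. In contralateral retinas the peaks of the start region, chr11:117968079-117970291, reached 974 to 1023 bp into the gene at 3mo and 1085 to 1759 bp at 18mo. In IOP retinas they reached 1741 to 1885 bp and 1755 to 1968 bp. A peak between 1600 and 1800 bp was listed in 6 of 6 IOP retinas, in 1 of 6 contralateral retinas and in 0 of 6 untreated retinas, a window chosen after the peaks were seen and not tested. This stretch holds the end of an intron and the beginning of the exon with the coding sequence in GENCODE. On the other side of the start, the peaks reached 94 to 228 bp upstream in IOP and 195 to 244 bp in contralateral retinas. Within each list the strongest Socs3 peak stood at the 62.2nd to 82.0th percentile in IOP and at 52.0 to 66.9 in contralateral retinas, and these values overlapped at 3mo but not at 18mo.

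**Figure D4:**
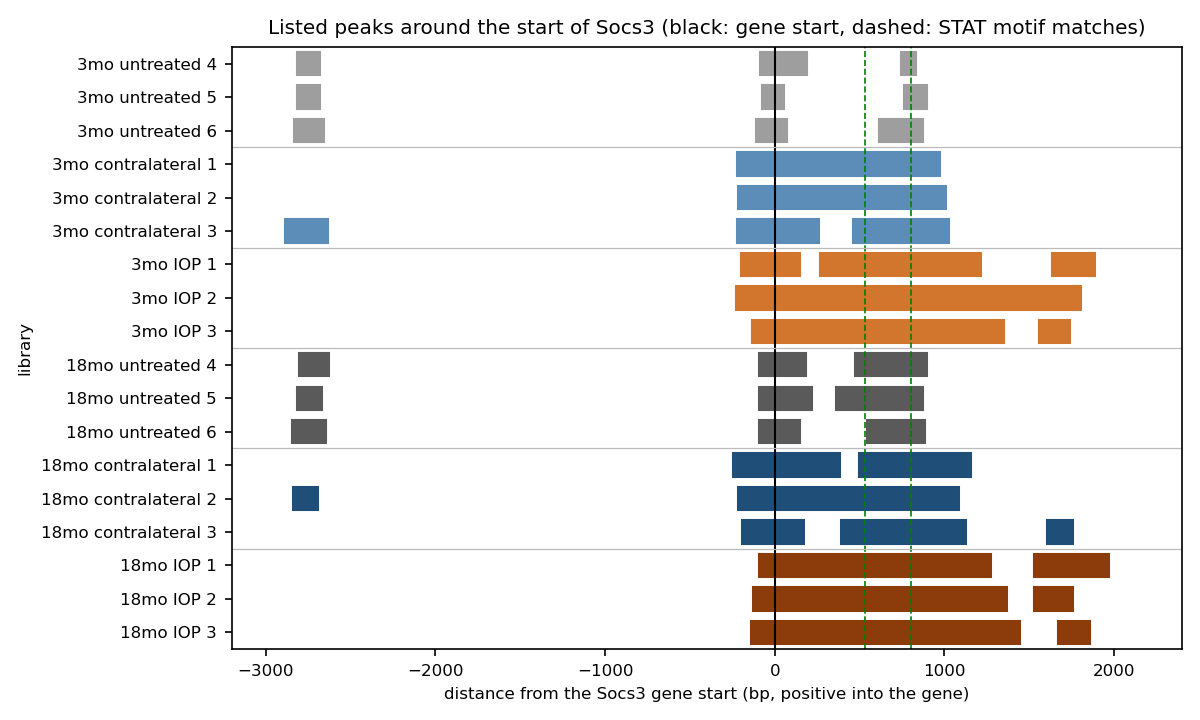
Listed peaks (bars) around the start of Socs3 in each library (rows), against the distance from the outermost gene start in bp, with the 2 STAT palindromes of the start region as dashed lines. In the 6 IOP retinas the peaks reach 1741 bp or farther into the gene, and a distal peak near −2751 bp is seen in the 6 untreated and 2 contralateral retinas only.

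**Figure D5:**
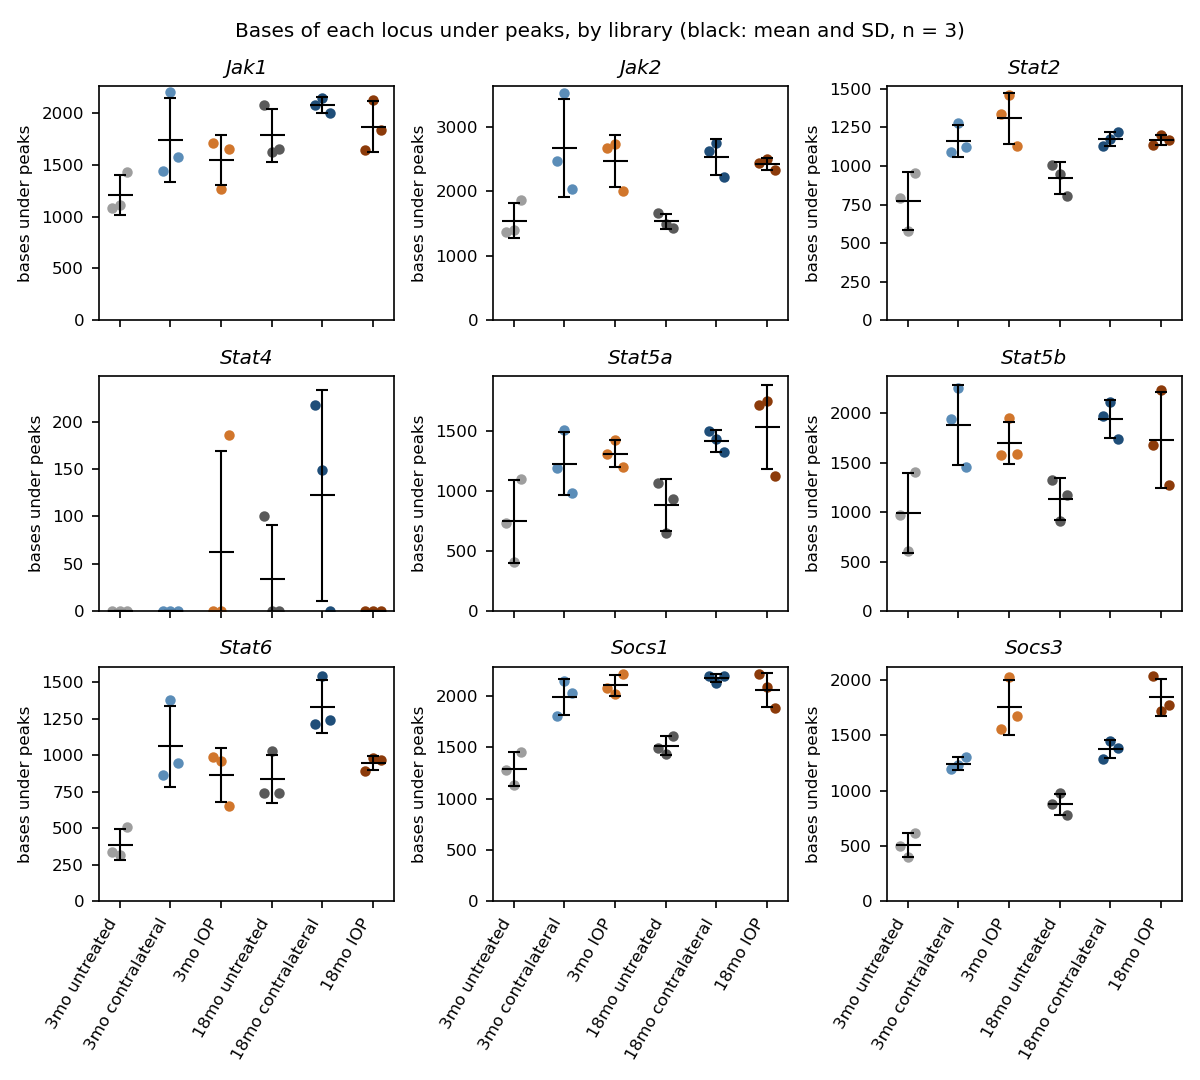
Bases under peaks in each of the 9 loci (y axis, from 0) in the 18 libraries, by group, with the mean and SD of 3 libraries in black. In Socs3 the IOP retinas (1559 to 2036 bp) lie above the contralateral retinas (1200 to 1450 bp), while in Socs1 both kinds overlap.

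Upstream of Socs3, a region 2.75 kb from the start, chr11:117972674-117972934, was called in 6 of 6 untreated, 2 of 6 contralateral and 0 of 6 IOP retinas (untreated against contralateral, exact p = 0.0800). The 201 bp around its summit, chr11:117972698-117972898, are shown for that contrast and held no STAT palindrome.
Socs3 2.75 kb upstream: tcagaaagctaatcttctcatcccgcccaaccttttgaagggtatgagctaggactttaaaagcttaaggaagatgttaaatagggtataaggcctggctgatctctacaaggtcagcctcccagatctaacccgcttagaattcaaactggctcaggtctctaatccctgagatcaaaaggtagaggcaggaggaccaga
The second Socs3 region with a STAT palindrome near its summit, 6.20 kb upstream, was called in 1 contralateral and 1 IOP retina of 18mo. Its window chr11:117976145-117976345 is shown with the palindrome in capitals.
Socs3 6.20 kb upstream: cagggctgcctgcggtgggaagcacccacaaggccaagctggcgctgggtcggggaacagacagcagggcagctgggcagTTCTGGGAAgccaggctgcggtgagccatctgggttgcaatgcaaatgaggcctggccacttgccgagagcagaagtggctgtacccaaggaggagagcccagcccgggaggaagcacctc

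Stat6 was the only other member below 0.05 for IOP. Its covered length differed by −289.2 bp (908.2 ± 128.9 bp in IOP and 1197.3 ± 256.5 bp in contralateral retinas, SD, n = 6 each, p = 0.0300, adjusted p = 0.906, exact permutation test). Without 3mo IOP replicate 3 or any 1 of the 18mo contralateral retinas the exact permutation p was 0.06 to 0.08. The difference was −142.5 bp with lists of equal length (exact permutation p = 0.430) and −183.2 bp with the locus starting 5 kb upstream (p = 0.110 by the same exact test). Of the other 6 tested genes, 2 were higher and 4 lower in IOP retinas, with p from 0.210 to 1. The 12 contralateral and IOP libraries held 5 with shorter listed peaks than the rest. Without these 5, Stat6 differed by −226 bp with an exact permutation p = 0.333. Socs3 then differed by 480 bp with an exact permutation p = 0.0556, the smallest p that this set allows, and still without overlap at either age.

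For age, covered length was higher in 18mo than in 3mo controls at 7 of 8 tested genes, with a median of 183.2 bp, beside 76.6% of all loci and a median of 65.2 bp. Jak1 differed by 456.7 bp (1926.3 ± 230.2 and 1469.7 ± 406.3 bp, SD, n = 6 each, p = 0.0455, adjusted p = 0.996, exact permutation test; p up to 0.0909 when any 1 of 9 control libraries was left out, and 261 bp with p = 0.0952 with lists of equal length), beside 3.77% of loci higher and 0.175% lower at this threshold. Since the kinds of control differ in peak width, ages were also exchanged within a kind only. Then 4 of 8 genes were higher with an unadjusted p below 0.05, beside 12.5% of all loci higher and 1.02% lower, and none after adjustment (0%). These were Socs3 (249.5 bp, p = 0.01), Stat6 (360.3 bp, p = 0.0150), Socs1 (203.3 bp, p = 0.0200) and Jak1 (456.7 bp, p = 0.0250), each by the stratified exact permutation test, with adjusted p from 0.217 to 0.277. Without this restriction the exact permutation p was 0.240 for Socs3, 0.119 for Stat6 and 0.383 for Socs1. The untreated retinas of 18mo lay above all those of 3mo in Jak1 (difference 577.7 bp), Stat6 (451.3 bp) and Socs3 (370.7 bp). In each of these genes the contralateral retinas of the ages overlapped, with differences of 335.7, 269.3 and 128.3 bp. The share of all loci with this order was not counted.

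Across the members, peak number was higher at 18mo in 7 of 8 tested genes (48.3% of all loci), and lower in IOP retinas in 5 of 8 (53.1% of all loci). For IOP over both ages, 0 of 8 genes had an unadjusted p below 0.05, beside 1.28% of all loci, and for the change of this IOP difference from 3mo to 18mo also 0 of 8, beside 0.323%; no locus passed either test after adjustment. Of the 34 regions, 4 could fall below 0.05 for age and 2 for IOP, and 0 did, beside 3.58% and 5.04% of all testable regions before and 0% after adjustment. At 18mo, 9 of the 34 regions were called less often and 3 more often in IOP than in contralateral retinas (26.5% and 8.82%, beside 35.8% and 7.15% of all regions). The comparisons of age and of IOP share the contralateral libraries.

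The rest of the pathway was followed in a list of 29 genes, 2 kinases, 12 inhibitors and 15 receptors, of which 26 could be tested. Promoters of both kinases, Jak3 and Tyk2, and of 11 of 12 inhibitors were called in all 18 libraries, the exception being Ptpn6 with 0, beside 51.7% of all protein-coding genes. Of the 15 receptors, 9 were called in all libraries, among them Il6st, Lifr and Cntfr, the receptor chains of leukemia inhibitory factor and ciliary neurotrophic factor. These 9 are 60% of the receptors, close to the share over all genes. The other 6 (40%, beside 35.8% of all genes) were called in 0, namely Osmr, Il2rg, Il12rb1, Il12rb2, Prlr and Epor. In peak number 3 genes were lower in IOP than in contralateral retinas with an unadjusted p below 0.05 and 0 were higher, beside 1.28% of all loci in either direction. These were Socs2 (−1.33 peaks, p = 0.0300), Socs5 (−1, p = 0.0450) and Ifngr2 (−0.833, p = 0.0300), by the stratified exact permutation test, and none passed after adjustment. The same 3 genes had less covered length (Socs2 by −317.2 bp, Socs5 by −309.8 bp, Ifngr2 by −314.8 bp, exact permutation p from 0.00500 to 0.0350), and 1 had more, Ifnar1, a chain of the type I interferon receptor (125.2 bp, exact permutation p = 0.0350), beside 3.82% of all loci lower and 0.963% higher. For age 0 of 26 were below 0.05 in peak number, and 1 was higher in covered length, Pias1, an inhibitor of activated STAT proteins (236.2 bp, exact permutation p = 0.0281), beside 3.77% of all loci.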

How the data were processed

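ATAC-seq peak lists of 18 bulk mouse retinas were used, 1 list per library. Per the labels and the study's methods, the authors aligned reads to mm10 and called peaks with MACS2 in each library separately, and their processing notes also name STAR 2.7.8a, bedtools 2.29.2 and HOMER. In the study's text HOMER and STAR are named for the RNA reads, and HOMER also for motifs. By the same text the authors compared read counts over open regions with a count model that these files cannot repeat. The shared extraction text describes crosslinking and immunoprecipitation, whereas the methods describe transposition of nuclei. In the deposited lists, the enrichment of a peak is a fold ratio over its local background and its significance is given as −log10 p and −log10 q, all relative to its own library and listed down to q = 0.05. The files hold no counts, so that the depth obtained is unknown and no count test was made. Fold and −log10 values were not compared between libraries, and only percentiles of −log10 q within a list are given.

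Peaks were merged at 1 bp of overlap, and regions called in at least 2 libraries were kept. Loci were taken from GENCODE release M21 and sequences from the RefSeq copy of the same mm10 assembly. Calls were compared by Fisher's exact test (age, 6 against 6 controls) or an exact conditional test stratified by age (IOP, kind of control). Peak numbers and bases under peaks were compared by exact permutation tests for every protein-coding gene with a mean of at least 1 peak, with Benjamini-Hochberg adjustment over all loci tested. The smallest p was 0.00216 for age, 0.005 for stratified comparisons and 0.1 within 1 age. The test of kind of control per region and all of the tests on bases under peaks were added after the data had been seen. Members and lists were chosen with earlier results of these data known. All 9 genes were named. Regions were described singly if they lay at a start, separated the groups of an IOP comparison, had an unadjusted p below 0.05 or, failing these, were among the 3 with the largest difference in calls. Further regions, sequences without a STAT palindrome and the 29-base sites were chosen after their values were seen. Sequence from windows over exons is shown only as those sites. The tests were tested on simulated data. Python 3.11.15, numpy 2.4.6, pandas 2.3.3, scipy 1.17.1 and matplotlib 3.10.9 were used.

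Alternatives were lists of equal length, a stricter q of 0.01, other locus limits, a larger overlap, age stratified by kind of control, the replicate number as a block, the share of a library's covered length, removal of libraries with shorter listed peaks and leaving out each library.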

Additional observations from a re-analysis of the deposited data

Results flagged for a closer look

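Among 80 sets of 6 libraries examined (5 sets for each of 8 loci and 2 measures), 7 held a library far from the other 5. The limit used flags about 1 in 20 sets of continuous, normally distributed values. Peak numbers are small whole numbers and the sets share libraries, so that this rate does not apply to them. Of the 18mo controls, untreated replicate 5 had 3 peaks at Stat2, the others 2, and untreated replicate 6 had 2 peaks at Stat5a, the others 3. The 3mo contralateral replicate 2, whose list was the longest with 66160 peaks, had 3 peaks at Stat5a where the other 3mo controls had 2. It also had 5 peaks at Stat6, where the other 3mo controls had 2 to 3 and the other contralateral retinas also had 2 to 3. Untreated replicate 6 of 3mo had 7 peaks at Jak2, the other untreated retinas 3 to 4. In covered length, 3mo IOP replicate 3 had 654 bp at Stat6, the other IOP retinas 896 to 989 bp.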

How the results depend on the processing

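Of 1447 recomputed values, 804 single-gene and 529 summary values were counted as unchanged. Single-gene differences in peak number or covered length then kept their direction and their side of the threshold. Differences in calls of a single region kept their direction and moved by at most 34 percentage points. Summary counts were counted as unchanged if equal or close in ratio, without regard to direction or a threshold. Counts below are of member genes or regions with an unadjusted p below 0.05 unless stated. With lists of equal length the counts were 0 for age in peak number (1 before) and 0 in covered length (1 before), 4 for kind of control in peak number (2 before), 1 for IOP in covered length (2 before), and 2 regions for kind of control (1 before). Then 0 regions were lost in 18mo IOP retinas (1 before) and 8 were called in every library (13 before). Directions turned for Stat6 (0.333 peaks) and Jak2 (0.333) after IOP, for Stat2 (−0.833) and Stat6 (−0.333) between kinds of control, and for Jak1 covered length after IOP (23.3 bp). With a locus start 5 kb upstream, kind of control in peak number gave 1, IOP in covered length 1, and Stat5b for age (−0.167) and Stat2 for kind of control (−0.167) turned. Without the 5 libraries of shorter listed peaks IOP in covered length gave 0, which has a smallest p of 0.0556, and Stat6 (0.333 peaks) and Jak1 covered length (0.750 bp) turned. As a share of the library's covered length, age gave 2 and kind of control 3 (8 before), with 5408 adjusted calls over all loci (11562 before). With age stratified by kind of control covered length gave 4. With a peak required to cover 50% of a region, kind of control gave 5 regions (7274 adjusted over all regions, 0 before), 3 were lost in 18mo IOP retinas and 3 were called in every library. The STAT palindrome was in 20.6% of whole regions against 5.88% near summits. The cause was not tested.

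The labels do not say whether equal replicate numbers mark the eyes of the same animal. Calls were correlated as deviations from group means, between contralateral and IOP retinas of an age. These correlations were −0.0898 to 0.0974 for equal numbers and −0.152 to 0.144 for different numbers. With 3 libraries per group they cannot show whether the samples were paired. With the replicate block, age gave 0 genes in peak number (Jak1 exact permutation p = 0.0938) and 2 in covered length, and IOP gave 1 in covered length, Socs3 (489 bp, exact permutation p = 0.0312).

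Leaving out 1 library at a time, Socs3 covered length after IOP differed by 441.5 to 536.9 bp (exact permutation p = 0.005 to 0.01), and the counts ranged from 1 to 3 for age and 0 to 2 for IOP in peak number, 0 to 2 for age and 1 to 2 for IOP in covered length, 0 to 1 for IOP and 1 to 3 for kind of control in regions, and 1 to 2 for regions lost in 18mo IOP retinas. Regions gained and lost at 3mo ranged from 0 to 1 each. The highest age counts came without 3mo contralateral replicate 2 (3 in peak number, 2 in covered length) and the highest IOP count in peak number without 3mo contralateral replicate 3. Differences in peak number that turned for age were those of Jak2 (−1.17 to 0.233), Socs1 (−0.133 to 0.500), Stat2 (−0.0333 to 0.367) and Stat5b (−0.133 to 0.500), and Stat6 turned for IOP (−0.400 to 0.200) and kind of control (−0.167 to 0.533). Peak calls without depth limit all comparisons to presence and extent.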

Other observations

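Among the 25 loci whose bases under peaks in IOP retinas lay above all contralateral retinas at both ages, 4 are described here beside Socs3. They were chosen after their values were seen, with no test of the list, and not by size. Differences larger than that of Socs3 were also seen at Zbtb7c (2950.8 bp), Myo5b (1514.2 bp), Spidr (1450.7 bp) and Rnf145 (612 bp). Irf9 and Bst2 ranked 22 and 23 among the 25. Random exchange of labels within each age would give no fewer such loci, so the 4 are not a theme of the list. Bcl3, a nuclear partner of NF-kB proteins, had a mean of 1576 bp in contralateral and 3045 bp in IOP retinas of 3mo and 1543.7 and 3003 bp at 18mo, the third largest difference. Edn2, a vasoactive peptide, had 401.3 and 1068.3 bp at 3mo and 848.7 and 1145 bp at 18mo. Irf9, which binds DNA together with Stat2, differed less, with 679 and 802.3 bp at 3mo and 701.7 and 858.3 bp at 18mo. Bst2, an interferon-induced membrane protein, differed by 131.5 bp over both ages, in the same peaks as its neighbour Mvb12a. No locus passed after adjustment (adjusted p = 0.883 for each of these, exact permutation test).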
